A study of Homo sapiens with 16 samples.

Results

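The expression of 10 genes that build and regulate the Golgi apparatus was examined in LNCaP cells, an established line of human prostate cancer. The genes were chosen by name from the 58051 genes of the count table, by a rule that does not use their measured values, although earlier results of these data were known when the set was drawn up. They comprise the GOLPH3 pair (GOLPH3, GOLPH3L), the GRASP pair (GORASP1, GORASP2), the golgins GOLGA2 and GOLGB1 with their partner USO1, and the ARF regulators GBF1, ARF4 and ARFGAP3. RNA was sequenced from 4 groups of 4 libraries. In the knockdown experiment, cells received either a control siRNA (Allstar; siCtrl) or an siRNA against XBP1 (siXBP1) and were left for 2 days. The inhibitor experiment compared DMSO (Vehicle) with 10 μM MKC8866, an inhibitor of the IRE1α RNase, each given for 24 h. The cells of all 16 libraries, controls included, were then exposed to 30 nM thapsigargin for 3 h, and all were at passage 20, so that every value below was measured in cells under mild endoplasmic reticulum (ER) stress. Both treatments act on IRE1α-XBP1s signaling, the siRNA on XBP1 and MKC8866 on the IRE1α RNase. The comparisons therefore need not give the same answer. The labels do not say whether the 4 libraries of a group came from separate cultures, and p-values therefore measure the spread between libraries, which may be technical.

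The Golgi apparatus receives proteins from the ER, modifies them and sorts them onward. Its stacked cisternae are held together by GRASP proteins and by golgins, long coiled-coil proteins that also catch incoming vesicles. Small GTPases of the ARF family recruit the COPI vesicle coat to Golgi membranes when an exchange factor loads them with GTP, and release it when a GTPase-activating protein stimulates hydrolysis. IRE1α is an ER stress sensor whose RNase removes an intron from XBP1 mRNA, which allows synthesis of the transcription factor XBP1s. XBP1s is known for inducing genes of the secretory pathway, and it binds DNA elements built around the letters ACGT.

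Because GOLPH3L responded to both treatments and its paralogue GOLPH3 was called in neither comparison, the 250 bases before their start sites are shown, from RefSeq (GRCh38.p14), 5′ to 3′ on the strand of the gene. Capitals mark ACGT, which reads the same on both strands. The window of GOLPH3L is chr1:150697155-150697404, minus strand, and that of GOLPH3 is chr5:32174320-32174569, minus strand.
GOLPH3L: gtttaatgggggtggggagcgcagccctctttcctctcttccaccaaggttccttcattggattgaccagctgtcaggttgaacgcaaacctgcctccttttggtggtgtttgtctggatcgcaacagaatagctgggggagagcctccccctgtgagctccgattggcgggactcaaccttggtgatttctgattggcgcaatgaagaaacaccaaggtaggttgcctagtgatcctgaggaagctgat
GOLPH3: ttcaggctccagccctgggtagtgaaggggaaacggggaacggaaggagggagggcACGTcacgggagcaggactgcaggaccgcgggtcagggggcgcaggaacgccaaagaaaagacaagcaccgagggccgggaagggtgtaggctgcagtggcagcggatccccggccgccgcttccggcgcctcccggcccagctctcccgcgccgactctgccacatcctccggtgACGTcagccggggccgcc

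The GOLPH3 window held ACGT at 2 places, whose first bases lay 194 and 18 bases before the start site, and the GOLPH3L window held none. The windows also differed in composition. Over the full 300 bases (250 before and 50 after the start site), GOLPH3L had a GC content of 52.3% and 8 CpG dinucleotides, against 69.7% and 30 for GOLPH3. The medians over all 35116 RefSeq windows of this length were 58.7% and 14.

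For the GRASP pair, only the short stretches around ACGT are shown, in capitals, since parts of the longer windows are annotated as untranslated exon. The stretch of GORASP2 is chr2:170929235-170929260, plus strand, and that of GORASP1 is chr3:39107641-39107666, minus strand.
GORASP2: cagcgagtgccACGTcccaagtgcta
GORASP1: caaaacgcctcACGTcacaaggcgca

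Both genes therefore carried 1 such match each, 7 bases before the start site in GORASP2 and 28 bases before it in GORASP1. Across the 300-base windows, ACGT was present in 33.3% of all RefSeq windows. Of the 8 members with an entry in the RefSeq table, it was present for GORASP1, GORASP2, GOLPH3, GOLGB1 (1 match, 67 bases before the start site) and GBF1 (1 match in each of its 2 windows), and not found for GOLPH3L, GOLGA2 and ARFGAP3. ARF4 and USO1 had no entry. Start sites are those of RefSeq and can differ from the ends of the genes as counted. The windows of GORASP1, GORASP2 and ARFGAP3 lie inside the counted genes. Of the 2 GBF1 windows, chr10:102230393-102230692 lies upstream of the counted gene, which begins at 102245532.

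Further sequences were searched on both strands. CCACG, one arm of the ER stress response element, does not itself contain ACGT. It was present in 38.1% of all windows. It occurred 3 times each in GOLGA2 and ARFGAP3, 2 times in GORASP1, once in GORASP2 and once in each window of GBF1, and it was not found in GOLPH3L, GOLPH3 or GOLGB1. CCACGT, which contains both CCACG and ACGT, was present in 9.72% of all windows, and among these genes in GORASP2 and in 1 window of GBF1. TGACGTG, which also contains ACGT, was present in 1.97% of all windows, and among these genes in GORASP1, GOLPH3 and 1 window of GBF1. The full ER stress response element (CCAAT, 9 bases, CCACG) was present in 0.0769% of all windows and in none of the 9 windows of these genes. These are matches of letters and not measured binding sites, and a window without a match says only that these letters are not in it.

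Sequencing gave between 28713607 and 34509488 counted fragments per library, with a median of 30743136. Every library had at least 1278 fragments on each of the 10 genes, and all 10 passed the filter on low counts. XBP1 itself checked the knockdown: it was at 385, 421, 366 and 359 CPM (counts per 1000000 fragments, scaled by TMM over the 16 libraries) in siCtrl, and at 51.2, 54.2, 54.1 and 53.2 CPM in siXBP1 (log2 fold change −2.85 ± 0.05 SE, adjusted p = 2.95e-20). With MKC8866, XBP1 was higher (578 ± 33.9 CPM against 503 ± 25.3 CPM in Vehicle, SD, n = 4; log2 fold change 0.20 ± 0.04, adjusted p = 0.00493). The counts cover the whole XBP1 gene and do not separate its spliced form. The prostate luminal markers KLK3, KLK2, FOLH1, KRT8 and KRT18 had group means between 101 and 1254 CPM. The markers of basal, blood and endothelial cells (KRT5, TP63, PTPRC, PECAM1) and the stromal marker COL1A2 had group means no higher than 0.328 CPM, whereas the other stromal marker, COL1A1, was at 27.6 to 32.9 CPM.

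XBP1 knockdown lowered 8 of the 10 genes and raised none, and MKC8866 lowered 7 and raised none. Among all genes tested, 18.2% were called lower and 16.5% higher after knockdown, and 3.11% lower and 1.36% higher with MKC8866, at an adjusted p under 0.05 (edgeR quasi-likelihood test, Benjamini-Hochberg adjustment over all genes). Neither edgeR at an unadjusted p under 0.05 nor DESeq2 found any of the 10 higher in these comparisons. The median log2 fold change of the 10 genes was −0.57 after knockdown and −0.31 with MKC8866, against 0.00495 and 0.00269 over all genes tested. Among the genes called, GOLPH3L fell by 56.5% after knockdown and GBF1 fell by 16.8%. With MKC8866, GOLPH3L fell by 43.1% and GOLGB1 fell by 15.7%. In RNA from bulk cultures, less RNA per cell and fewer cells that express a gene cannot be told apart.

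**Figure D1:**
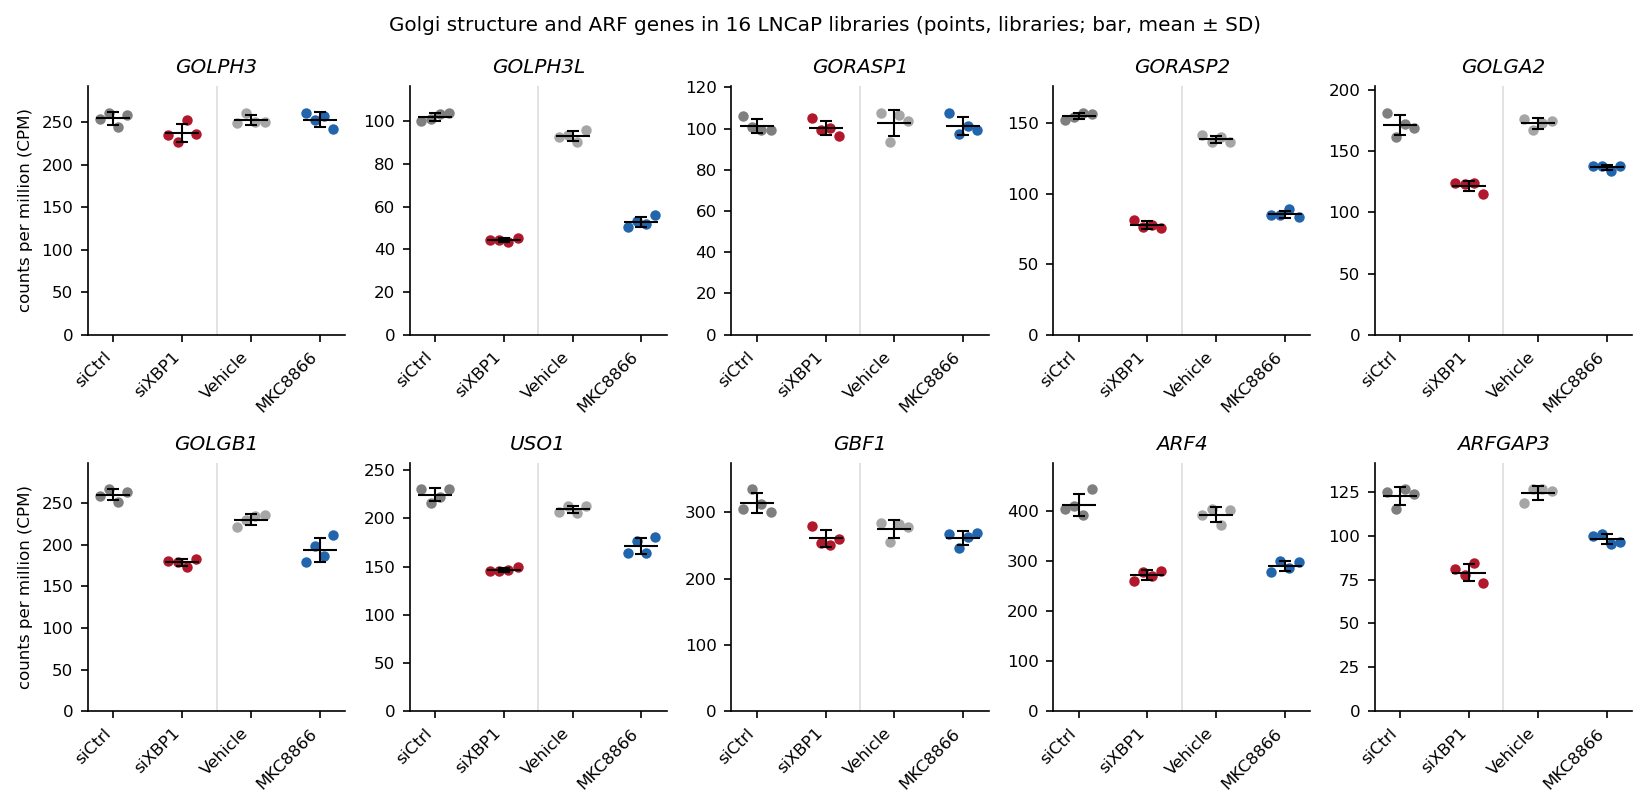
CPM (y axis, from 0) of each of the 10 genes in the 16 libraries, by group (x axis); points are libraries and bars are the mean ± SD of 4. In GOLPH3L, GORASP2, GOLGA2, GOLGB1, USO1, ARF4 and ARFGAP3, the treated libraries lie below all libraries of their own control in both experiments, whereas the groups overlap for GOLPH3 and GORASP1.

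GOLPH3 and GOLPH3L are peripheral membrane proteins that bind phosphatidylinositol 4-phosphate (PI4P) at the Golgi; GOLPH3 links these membranes to actin through the myosin MYO18A and helps to retain glycosyltransferases. GOLPH3L (ENSG00000143457, chr1:150646225-150697144, minus strand, GRCh38) had the largest fall of the 10 genes in both comparisons. It was at 99.9, 101, 103 and 104 CPM in siCtrl and at 44.5, 44.3, 43.3 and 45.4 CPM in siXBP1. The groups were far apart, and no siXBP1 library reached 50% of the lowest control. The log2 fold change was −1.20 ± 0.04 (SE), with an adjusted p of 1.03e-15. In Vehicle, GOLPH3L was at 92.5, 93.6, 90.5 and 95.7 CPM, and with MKC8866 at 50.3, 53.1, 51.9 and 56.0 CPM. The groups again did not overlap, and the log2 fold change was −0.81 ± 0.05 (adjusted p = 5.18e-12).

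GOLPH3 (ENSG00000113384, chr5:32124704-32174350, minus strand) was the more abundant of the pair. Its 4 libraries stood at 254, 261, 244 and 259 CPM in siCtrl and at 235, 227, 252 and 237 CPM in siXBP1. These ranges overlapped through the third siXBP1 library, and the difference did not pass the test (log2 fold change −0.10 ± 0.04, adjusted p = 0.0683). The outcome depended on that library: without siXBP1 replicate 3 the adjusted p was 0.0218 and the log2 fold change −0.13, and in the fit of all 16 libraries the adjusted p was 0.0374, within a range of 0.0218 to 0.257 over 14 alternatives. With MKC8866, GOLPH3 was at 261, 253, 257 and 241 CPM, against 249, 261, 251 and 249.6 CPM in Vehicle. The MKC8866 range enclosed that of Vehicle, with a log2 fold change of 0.01 ± 0.04 and an adjusted p of 0.975.

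The GRASP proteins are membrane-anchored stacking factors. GORASP1 (GRASP65) sits at the cis side with GOLGA2, and GORASP2 (GRASP55) at the medial cisternae with the golgin BLZF1. GORASP2 (ENSG00000115806, chr2:170928464-170967129, plus strand) was at 153, 154, 158 and 157 CPM in siCtrl and at 81.3, 76.6, 77.9 and 75.4 CPM in siXBP1. All 4 treated libraries were far below the controls, and the level fell by 49.9% (log2 fold change −0.997 ± 0.04, adjusted p = 1.13e-14). Vehicle libraries had 142, 137, 141 and 137 CPM, and MKC8866 libraries had 84.7, 85.1, 89.0 and 83.2 CPM. The groups did not overlap, and the level fell by 38.3% (log2 fold change −0.70 ± 0.04, adjusted p = 1.1e-11).

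GORASP1 (ENSG00000114745, chr3:39096659-39108363, minus strand) was called in neither comparison. It was at 106, 100.5, 99.4 and 99.0 CPM in siCtrl and at 105, 99.4, 100.1 and 96.6 CPM in siXBP1. In Vehicle it was at 107, 93.7, 106 and 104 CPM, and with MKC8866 at 108, 97.5, 101 and 99.1 CPM. Treated and control libraries overlapped in both experiments, and the log2 fold changes of −0.01 ± 0.04 (adjusted p = 0.849) and −0.02 ± 0.05 (adjusted p = 0.918) did not pass the test. Of its exonic bases, 2.8% are shared with the neighbouring genes WDR48 and TTC21A, and fragments there were not counted.

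The unequal change within each pair can be read without any scaling, as the ratio of counts within a library. The ratio of GOLPH3L to GOLPH3 fragments was 0.401 in siCtrl and 0.187 in siXBP1 (log2 difference −1.10, pooled SD 0.07), and 0.369 in Vehicle and 0.209 with MKC8866 (−0.82, pooled SD 0.09). GORASP2 had more fragments than GORASP1 in all 8 control libraries, at ratios of 1.53 in siCtrl and 1.35 in Vehicle, and fewer in all 8 treated libraries, at 0.776 in siXBP1 and 0.844 with MKC8866. The log2 ratio fell by 0.98 after knockdown and by 0.68 with MKC8866 (pooled SD 0.05 and 0.07). Among the ARF genes, ARF4 was set against ARF5, the other class II ARF, and ARFGAP3 against its close paralogue ARFGAP2. The ratio of ARF4 to ARF5 went from 5.09 to 2.74 after knockdown and from 4.57 to 3.37 with MKC8866 (log2 differences −0.89 and −0.44). For ARFGAP3 to ARFGAP2 the ratio went from 1.18 to 0.851 and from 1.29 to 1.06 (log2 differences −0.47 and −0.29). In each of these 8 comparisons the 4 treated libraries were all below the 4 controls, and the two-sided exact permutation test gave p = 0.0286 (0.0286 after Benjamini-Hochberg adjustment over the 8), the smallest that 4 against 4 allow.

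**Figure D2:**
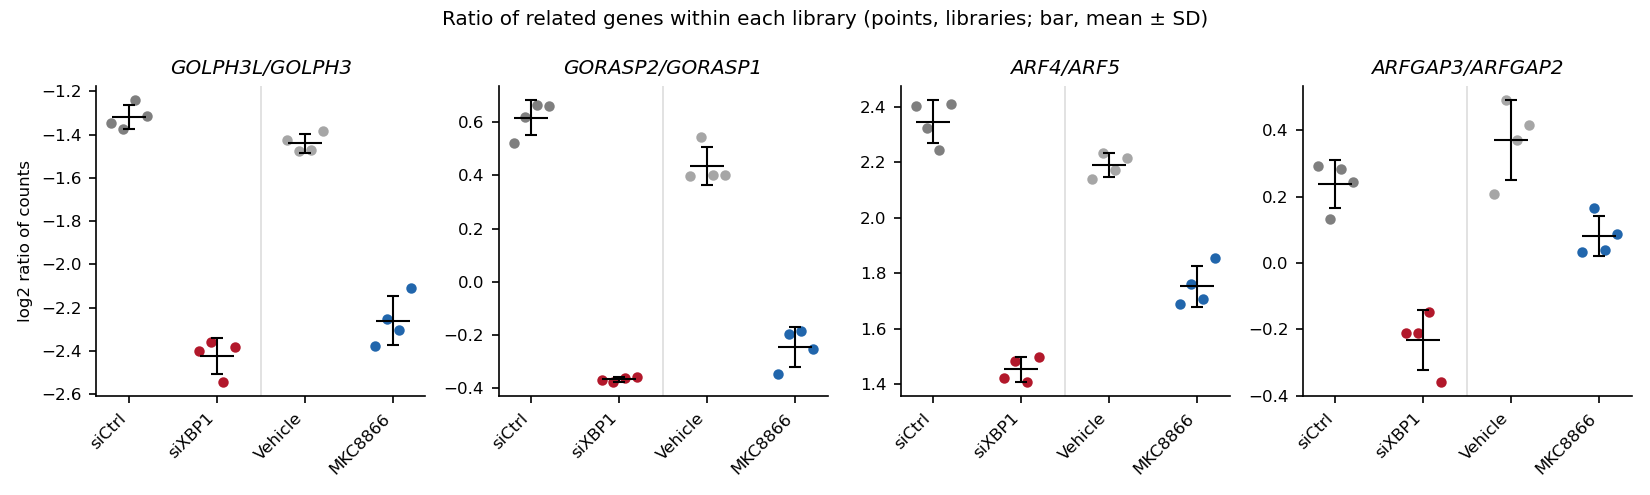
The log2 ratio of counts (y axis) of GOLPH3L to GOLPH3, GORASP2 to GORASP1, ARF4 to ARF5 and ARFGAP3 to ARFGAP2 in each library, by group (x axis); points are libraries and bars are the mean ± SD of 4. The 4 treated libraries lie below the 4 controls in every panel, and the mean GORASP2 to GORASP1 log2 ratio passes from 0.62 to −0.37 after knockdown and from 0.44 to −0.24 with MKC8866.

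The change in ARF4/ARF5 came from both genes after knockdown, since ARF5 rose (log2 fold change 0.29 ± 0.04, adjusted p = 9.39e-06). With MKC8866, ARF5 had a log2 fold change of 0.01 (adjusted p = 0.973). ARFGAP2 fell after knockdown, by less than ARFGAP3 (log2 fold change −0.17 ± 0.04, adjusted p = 0.00197), and had a log2 fold change of −0.05 with MKC8866 (adjusted p = 0.687).

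The golgins and their partner fell together. GOLGA2 (GM130), the golgin that anchors GORASP1 to the cis-Golgi, is at chr9:128255829-128275995, minus strand (ENSG00000167110). It ranged from 162 to 182 CPM in siCtrl and from 115 to 124 CPM in siXBP1 (log2 fold change −0.49 ± 0.04, adjusted p = 5.02e-09). In the inhibitor experiment it ranged from 167 to 177 CPM in Vehicle and from 134 to 138 CPM with MKC8866 (−0.33 ± 0.04, adjusted p = 1.42e-06). Treated and control ranges did not meet in either experiment, although the lowest siXBP1 library and the lowest MKC8866 library each stood apart from the rest of their group.

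GOLGB1 (giantin), a giant golgin of the cisternal rims, lies at chr3:121663199-121749767, minus strand (ENSG00000173230). It ranged from 251 to 267 CPM in siCtrl and from 173 to 183 CPM in siXBP1, without overlap (log2 fold change −0.54 ± 0.04, adjusted p = 1.49e-10). The MKC8866 libraries were more spread, at 179, 198, 187 and 212 CPM, and lay below the Vehicle libraries at 221, 229.5, 234 and 236 CPM. This was the smallest of the 7 falls called with MKC8866 (log2 fold change −0.25 ± 0.05, adjusted p = 0.00103).

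USO1 (p115), which tethers ER-derived and COPI vesicles through GOLGA2 and GOLGB1, is at chr4:75724593-75814286, plus strand (ENSG00000138768). Its range was 216 to 230.3 CPM in siCtrl and 145 to 149 CPM in siXBP1, a narrow group well below every control (log2 fold change −0.62 ± 0.04, adjusted p = 1.58e-11). With MKC8866 it was at 164 to 180.2 CPM, below the 206 to 213 CPM of Vehicle (−0.29 ± 0.04, adjusted p = 3.11e-05).

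GBF1 is the exchange factor that activates ARF proteins at the cis-Golgi, and it had the smallest of the 8 falls called after knockdown. The gene (ENSG00000107862) is at chr10:102245532-102382899, plus strand. It was at 306, 335, 313 and 300.2 CPM in siCtrl and at 279, 254, 250.3 and 259.9 CPM in siXBP1. The groups did not overlap, and the log2 fold change was −0.27 ± 0.04 (adjusted p = 4.28e-05). Vehicle libraries had 284, 255, 282 and 277 CPM and MKC8866 libraries had 268, 247, 263 and 268 CPM. These overlapped through Vehicle replicate 2, and the log2 fold change of −0.07 ± 0.04 did not pass the test (adjusted p = 0.475). Each MKC8866 library lay below the Vehicle library of the same number, and a fit with a replicate block called the same log2 fold change of −0.07 (adjusted p = 0.0440, within a range of 0.0440 to 0.662 over 14 alternatives).

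ARF4 is a class II ARF that acts with GBF1 in early secretory traffic, and it had the highest level per length of the 10 genes. The gene (ENSG00000168374) is at chr3:57571363-57598220, minus strand. It was at 403, 410.4, 392 and 443 CPM in siCtrl and at 259, 278, 270.2 and 279.8 CPM in siXBP1. All treated libraries were below the lowest control (log2 fold change −0.60 ± 0.04, adjusted p = 1.78e-10). In Vehicle it was at 392, 403, 371 and 402 CPM, and with MKC8866 at 278, 299, 286 and 298 CPM, again without overlap (−0.43 ± 0.04, adjusted p = 3.55e-08). Of its exonic bases, 11.6% are shared with the antisense gene ARF4-AS1. Counting ignored strand and dropped fragments assigned to both genes, so ARF4 values rest on the remaining bases.

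ARFGAP3, a GTPase-activating protein for ARF1 that promotes uncoating of COPI vesicles, is at chr22:42796502-42858106, minus strand (ENSG00000242247). Its range was 115 to 126 CPM in siCtrl and 72.8 to 84.6 CPM in siXBP1 (log2 fold change −0.64 ± 0.05, adjusted p = 5.54e-10). The Vehicle range of 119 to 127 CPM and the MKC8866 range of 95.4 to 101 CPM did not overlap either (−0.34 ± 0.04, adjusted p = 3.21e-06). Of its exonic bases, 4.6% are shared with PACSIN2.

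**Figure D3:**
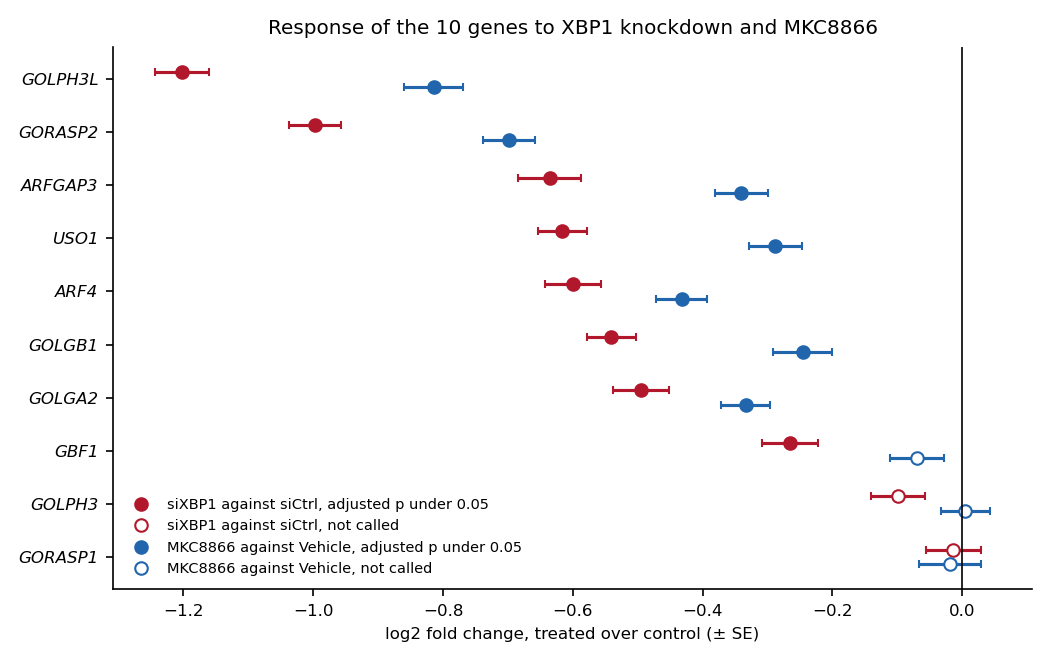
Log2 fold change (x axis, ± SE) of each gene (y axis, ordered by the knockdown response) after XBP1 knockdown (red) and with MKC8866 (blue); filled points have an adjusted p under 0.05 over all genes tested. GOLPH3L is lowest in both comparisons at −1.20 and −0.81, and GOLPH3 and GORASP1 lie within 0.10 of 0.

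Compared per kilobase of exon (CPM divided by the exonic length, FPKM), the genes kept a common order in the controls and partly lost it after treatment. In siCtrl, ARF4 was highest at 159 ± 8.54 FPKM (SD, n = 4), followed by GOLPH3 at 91.4 ± 2.67. USO1 (49.0 ± 1.48) and GBF1 (47.2 ± 2.30) came next with overlapping libraries. Each of the lower neighbours was separated by its libraries, in the order ARFGAP3 (36.3 ± 1.52), GOLPH3L (30.7 ± 0.596), GORASP2 (29.1 ± 0.430), GOLGA2 (24.6 ± 1.18), GOLGB1 (21.9 ± 0.580) and GORASP1 (16.2 ± 0.524). The Vehicle libraries gave the same order of means, without overlap between any neighbours.

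In siXBP1, GOLPH3L went from rank 6 to rank 10 (13.3 ± 0.256 FPKM) and GORASP2 from rank 7 to rank 9 (14.6 ± 0.478). GORASP1, whose level had been the lowest, stood at rank 7 (16.0 ± 0.567). Here GOLGA2 overlapped with GORASP1, GORASP1 with GOLGB1, and GOLGB1 with GORASP2, so the order among these neighbours is not resolved. With MKC8866, GOLGB1 (16.3 ± 1.20), GORASP1 (16.2 ± 0.721), GORASP2 (16.0 ± 0.459) and GOLPH3L (15.9 ± 0.714) occupied ranks 7 to 10 with libraries that overlapped from each to the next. GBF1 (39.3 ± 1.51) also overlapped with USO1 (37.3 ± 1.84).

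A direct comparison of the responses was made as an interaction over all 16 libraries, which asks whether the log2 fold change after knockdown differs from that with MKC8866. For 8 of the 10 genes the fall after knockdown was larger, against 12.7% of all genes called lower and 10.6% called higher in this contrast. The difference was −0.39 ± 0.06 (SE) for GOLPH3L (adjusted p = 7.53e-06), −0.33 ± 0.05 for USO1 (adjusted p = 2.92e-05) and −0.30 ± 0.05 for GORASP2 (adjusted p = 8.58e-05). It was −0.29 ± 0.06 for both GOLGB1 and ARFGAP3 (adjusted p = 0.000539 and 0.000795). These 5 calls were kept in all 21 alternatives. The differences of GBF1 (−0.19 ± 0.06, adjusted p = 0.0224), ARF4 (−0.17 ± 0.06, adjusted p = 0.0387) and GOLGA2 (−0.16 ± 0.06, adjusted p = 0.0375) were smaller and less firm. The call of GBF1 was lost without siCtrl replicate 2 or without Vehicle replicate 2 (adjusted p = 0.0638 and 0.0588, within a range of 0.00548 to 0.0638). The call of ARF4 was lost without any one of siCtrl replicates 2 and 4, siXBP1 replicates 1 and 3, Vehicle replicates 1 and 3, and MKC8866 replicates 2 and 4, and without a filter on low counts, within a range of adjusted p of 0.00616 to 0.114. The call of GOLGA2 was lost without any one of siCtrl replicates 1 and 3, siXBP1 replicate 4, Vehicle replicates 2, 3 and 4, and MKC8866 replicates 1 and 4, and without a filter (0.0142 to 0.0963). For GOLPH3 (−0.10 ± 0.05, adjusted p = 0.194) and GORASP1 (0.01 ± 0.06, adjusted p = 0.96) a difference was not detected. For GBF1 the treated means were alike, at 260.8 CPM in siXBP1 and 261.3 CPM with MKC8866, whereas its control means were 313.4 CPM in siCtrl and 274.6 CPM in Vehicle. The experiments had separate controls and differed in transfection and in the length of treatment, so the kind of inhibition and the experiment cannot be told apart.

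Among the 10258 genes with a mean of at least 10 CPM, those whose log2 CPM followed GOLPH3L most closely were SLC33A1, the acetyl-CoA transporter of the ER membrane (Pearson r = 0.997), TMEM39A (r = 0.996) and PRRC1 (r = 0.996). The correlation was taken over the 16 libraries after the mean of each experiment was subtracted, and it is given as a description, since the libraries form treated and control clusters. SLC33A1 had log2 fold changes of −1.25 and −0.85 after knockdown and with MKC8866, TMEM39A −1.75 and −1.14, and PRRC1 −0.87 and −0.60.

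The surroundings of the 10 genes were examined with 55 related Golgi genes in 7 lists by role. After knockdown 28 were lower (50.9%, beside 18.2% of all genes tested) and 9 higher (16.4%, beside 16.5%), and the median log2 fold change was −0.15. The share called higher was thus that of the background, and the rises named below are single genes. With MKC8866 12 were lower (21.8%, beside 3.11%) and 1 higher (1.82%, beside 1.36%), with a median of −0.04. The gene called higher was ARF6, a plasma membrane ARF (log2 fold change 0.14 ± 0.04, adjusted p = 0.0355). This call was lost in 7 of 8 fits that left out 1 library, all but the one without Vehicle replicate 4 (adjusted p from 5.5e-05 to 0.129 over 14 alternatives). In the fit with a replicate block, 20 related genes were called with MKC8866, 19 of them lower and 1 higher, beside 7.05% of all genes lower and 6% higher. The 7 genes gained were GOLGA4, GCC1, TRIP11, GOLIM4, ARF1, RAB2A and RAB33B, all lower. In the interaction, 16 of the 55 were lower (29.1%, beside 12.7%) and 5 higher (9.09%, beside 10.6%). In the account by list, the gene with the lowest p in each list was named by rule, and the others were named after their values had been seen.

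Of the golgins and other matrix proteins listed, 8 of 10 fell after knockdown (80%, beside 18.2% of all genes tested). Only GCC2 was called higher (10%, beside 16.5%), with a log2 fold change of 0.11 ± 0.04 and an adjusted p of 0.0448. The list median was −0.31. The call of GCC2 was lost in 7 of 14 alternatives, among them the fits without siCtrl replicate 3 and without siXBP1 replicates 2, 3 or 4 (adjusted p from 0.0169 to 0.109). GOLGA1 (golgin-97), a golgin of the trans-Golgi, was lower by 0.97 ± 0.05 on the log2 scale (adjusted p = 1.49e-13), yet its log2 fold change with MKC8866 was −0.02 (adjusted p = 0.899). The interaction was called for GOLGA1 (−0.95 ± 0.06, adjusted p = 6.54e-13). BLZF1, the golgin found with GORASP2, was called neither after knockdown nor with MKC8866 (−0.06 and −0.05, adjusted p = 0.296 and 0.687). GOLGA5 (golgin-84), a golgin of the cisternal rims like giantin, fell with both treatments (−0.57 ± 0.04 and −0.32 ± 0.04, adjusted p = 2.25e-10 and 4.01e-06). TMF1 was the other golgin called with MKC8866 (−0.29 ± 0.04, adjusted p = 0.000119). The number of golgins called with MKC8866 was 2 in this fit (20%, all lower, beside 3.11% of all genes tested). It was 4 in DESeq2, which added GCC1 and TRIP11, and 6 with a replicate block, which also added GOLGA4 and GOLIM4. The block also raised the share of all genes called lower, to 7.05%, and the share for DESeq2 is not given here. Their log2 fold changes were −0.15 for GCC1 (adjusted p = 0.0765, 0.0013 with the block), −0.14 for TRIP11 (0.069 and 0.000592), −0.14 for GOLGA4 (0.147 and 0.000168) and −0.15 for GOLIM4 (0.0897 and 0.00475).

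After knockdown, 2 of the 5 listed ARF GTPases were lower and 2 higher (40% each, beside 18.2% and 16.5% of all genes tested). With MKC8866, 1 was lower and 1 higher (20% each, beside 3.11% and 1.36%). ARL1, an ARF-like protein that recruits trans-Golgi golgins, fell with both treatments (−0.58 ± 0.04 and −0.34 ± 0.05, adjusted p = 3.17e-10 and 2.18e-05), and ARF1 fell after knockdown (−0.49 ± 0.04, adjusted p = 5.6e-10). With MKC8866, ARF1 had a log2 fold change of −0.14 ± 0.04 (adjusted p = 0.0601), called with a replicate block (6.56e-06) and by DESeq2 (0.037). ARF5 and ARF6 rose after knockdown, and ARF3 was not called. The 6 exchange factors listed, without GBF1, were all called after knockdown, 50% lower and 50% higher, beside 18.2% and 16.5% of all genes tested. ARFGEF1 (BIG1), ARFGEF2 (BIG2) and CYTH1 fell, and CYTH2, CYTH3 and IQSEC1 rose. The call of CYTH2 (0.16 ± 0.05, adjusted p = 0.0196) was lost without siCtrl replicate 4 (adjusted p from 0.00702 to 0.0719 over the alternatives). ARFGEF1 had the lowest p of these (−0.38 ± 0.04, adjusted p = 1.21e-07). With MKC8866, 0 of the 6 were called by edgeR, 0 had an unadjusted p under 0.05 and DESeq2 called 0.

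Of 9 listed GTPase-activating proteins, ASAP1, ARFGAP1 and ARFGAP2 fell and ASAP2 and AGAP1 rose after knockdown. These shares of 33.3% lower and 22.2% higher stand beside 18.2% and 16.5% of all genes tested. Whether they differ from those of all genes was not tested. ASAP1, which acts on ARFs at focal adhesions, had the largest fall (−0.86 ± 0.05, adjusted p = 1.34e-12) and a log2 fold change of 0.02 with MKC8866. ARFGAP1, a GTPase-activating protein of the COPI coat like ARFGAP3, was the one member of its list called with MKC8866 (−0.31 ± 0.05, adjusted p = 0.000325, and −0.28 ± 0.05 after knockdown). That is 11.1% of the list lower with MKC8866, beside 3.11% of all genes tested.

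Golgi RABs and SNAREs bring vesicles to the membrane and fuse them with it. Of the 11 listed, 7 were lower after knockdown (63.6%, beside 18.2% of all genes tested) and 6 with MKC8866 (54.5%, beside 3.11%). In neither comparison was one higher by edgeR, at an unadjusted p under 0.05 or by DESeq2. With a replicate block, RAB2A and RAB33B were also called lower with MKC8866 (−0.15 for each, adjusted p = 0.00039 and 0.00152, against 0.114 and 0.063 without it). DESeq2, which used no block, called RAB33B (adjusted p = 0.0277) and not RAB2A (adjusted p = 0.0775). BET1, an ER-Golgi SNARE, fell from 31.8 ± 3.00 to 10.1 ± 1.01 CPM after knockdown (log2 fold change −1.65 ± 0.08, adjusted p = 2.28e-13) and from 30.3 ± 1.93 to 17.97 ± 0.674 CPM with MKC8866 (−0.75 ± 0.06, adjusted p = 4.2e-09). The fall of BET1 exceeded that of all 10 members after knockdown in size of the log2 fold change.

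The COG complex, an octamer that tethers vesicles within the Golgi, was mostly not called. Of its 8 genes, 2 were lower after knockdown (25%, beside 18.2% of all genes tested) and 1 with MKC8866 (12.5%, beside 3.11%). COG3 fell with both treatments (−0.53 ± 0.05 and −0.48 ± 0.04, adjusted p = 5.06e-09 and 4.09e-08) and COG6 after knockdown (−0.48 ± 0.06, adjusted p = 1.24e-06). Among 6 genes of PI4P, the lipid that GOLPH3 and GOLPH3L bind, 3 were lower after knockdown (50%, beside 18.2% of all genes tested) and 1 higher (16.7%, beside 16.5%). With MKC8866, 1 was lower (16.7%, beside 3.11%). The PI4P phosphatase SACM1L was lower after knockdown (−0.80 ± 0.04, adjusted p = 1.45e-12), as was the kinase PI4KB (−0.33 ± 0.04, adjusted p = 3.76e-07). MYO18A, the myosin partner of GOLPH3, was at the threshold, with overlapping groups (−0.15 ± 0.06, adjusted p = 0.0397), and was not called in 10 of 14 alternatives. These included DESeq2, other size factors, a replicate block and the fits without siCtrl replicates 2, 3 or 4 or siXBP1 replicates 2, 3 or 4 (adjusted p from 0.00888 to 0.243). PITPNB was called higher (0.13 ± 0.04, adjusted p = 0.0319), a call lost without siCtrl replicate 2 or siXBP1 replicates 2 or 3 (0.0147 to 0.0745). ACBD3, which brings PI4KB to the Golgi, was the one gene of this list called with MKC8866 (−0.24 ± 0.04, adjusted p = 0.00138), with a log2 fold change of 0.00 after knockdown (adjusted p = 0.977).

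**Figure D4:**
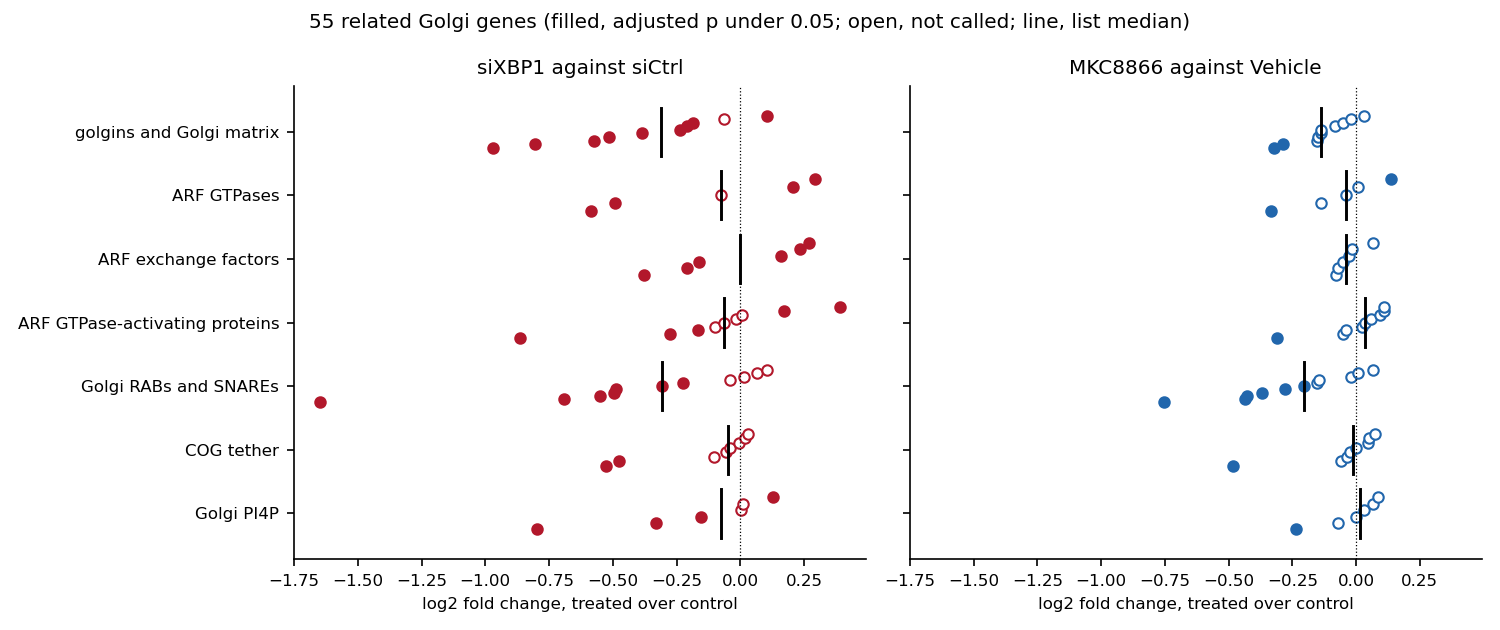
Log2 fold change (x axis) of the 55 related Golgi genes by list (y axis) after XBP1 knockdown (left) and with MKC8866 (right); each point is a gene, filled where the adjusted p is under 0.05, and vertical lines are list medians. Knockdown shows calls in both directions among ARF GTPases, exchange factors and GTPase-activating proteins, whereas the Golgi RABs and SNAREs called are all lower, 7 after knockdown and 6 with MKC8866.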

How the data were processed

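RNA-seq libraries (TruSeq stranded, paired-end) were aligned by the authors with STAR 2.5.2a to hg38 and counted per gene with featureCounts 1.5.0 on an Ensembl annotation. The values as deposited are raw counts of fragments per gene, counted without strand and without fragments that map to several places or to 2 genes. From these counts, siXBP1 was compared with siCtrl and MKC8866 with Vehicle by edgeR 4.0.16 in R 4.3.3 (TMM, quasi-likelihood F test, two-sided). Genes entered a fit if both groups had a library with over 5 counts, and p-values were adjusted by Benjamini-Hochberg over all genes tested, with a threshold of 0.05. The SE is the log2 fold change divided by the square root of F. Log2 fold changes come from these fits, while printed CPM were scaled by TMM over all 16 libraries, so their ratio can differ slightly from the fold change. The interaction was fitted on 20357 genes in 16 libraries.

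Ratios of counts within a library (0.5 added to each) were tested by exact permutation. Promoter windows came from RefSeq (GRCh38.p14), with 8 of 10 genes matched by symbol. Scripts were tested on simulated data. DESeq2 1.42.0, other size factors and filters, a replicate block, 1 fit of all libraries and leaving out each library were alternatives. The 10 genes and the lists were chosen with earlier results of these data known. Named by rule were the 10 genes, XBP1, the paralogues of the ratios, the called gene with the lowest p per list and comparison, and the 3 genes most like GOLPH3L. Other genes of the lists were named after their values had been seen.

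At a median depth of 30743136 fragments, the biological coefficient of variation was 5.40% (knockdown) and 4.97% (inhibitor). In the inhibitor experiment, deviations of libraries from their group means were correlated over 15037 genes. Libraries with the same number in the labels gave 0.102 to 0.379, and those with different numbers gave −0.252 to 0.159. Vehicle replicate 3 nevertheless correlated more with MKC8866 replicate 1 (0.159) than with its own number. These numbers were used as pairs only in the alternative with a replicate block. The main fits, and the p-values printed without mention of a block, used no pairing.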

Additional observations from a re-analysis of the deposited data

Results flagged for a closer look

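In 4 of 40 groups of 4 libraries, 1 library stood apart from the other members of its group by Dixon's test, which chance gives in about 1 of 20 groups. These were GOLPH3 in Vehicle replicate 2 (260.9 CPM, against 249 to 251 in the other libraries), GOLGA2 in siXBP1 replicate 4 (115.4 CPM, against 123 to 124), GOLGA2 in MKC8866 replicate 3 (133.7 CPM, against 138) and ARFGAP3 in Vehicle replicate 1 (118.8 CPM, against 126 to 127). Leaving out any of these libraries kept the calls of these genes in both treatment comparisons, but without siXBP1 replicate 4 the difference of the responses of GOLGA2 was no longer called (adjusted p = 0.0949), and without Vehicle replicate 2 it was also lost (adjusted p = 0.0747).

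The response to knockdown was larger than that to MKC8866 for 8 genes by the interaction term in edgeR, by −0.39 for GOLPH3L, −0.33 for USO1, −0.30 for GORASP2, −0.29 for ARFGAP3, −0.29 for GOLGB1, −0.19 for GBF1, −0.17 for ARF4 and −0.16 for GOLGA2 on the log2 scale. In this contrast 12.7% of all genes were called lower and 10.6% higher. The calls of GBF1, ARF4 and GOLGA2 were each lost in some of the 21 alternatives. Separate controls and different lengths of treatment mean that the agent and the experiment cannot be told apart.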

How the results depend on the processing

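Over the log2 fold changes of the 10 genes, 452 alternative values kept both direction and call, 20 lost a call, 3 gained one and 15 changed sign. All 15 sign changes arose on leaving out 1 library, in values near 0: over these fits GORASP1 ranged from −0.0297 to 0.0150 after knockdown, from −0.0631 to 0.000276 with MKC8866 and from −0.0169 to 0.0481 in the difference of the responses, and GOLPH3 ranged from −0.0168 to 0.0222 with MKC8866. The gains were GOLPH3 after knockdown and GBF1 with MKC8866, and all losses were in the differences of GOLGA2, ARF4 and GBF1. Leaving out 1 library, 8 to 9 members were called after knockdown, 7 with MKC8866 and 6 to 8 in the difference, and the related genes numbered 34 to 38, 12 to 15 and 20 to 23. A replicate block raised the related genes called with MKC8866 from 13 to 20 (golgins from 2 to 6) and moved none of the other 5 totals of members or related genes by over 1.5 times. The block also raised the shares of all genes called with MKC8866, from 3.11% to 7.05% lower and from 1.36% to 6% higher. Of the members in the inhibitor experiment it changed the call of GBF1 only. In the knockdown experiment same-numbered libraries correlated at 0.0011 to 0.068, not always best with their own number, and the block gave 8 members and 35 related genes. The ratios kept their sign without a pseudocount and without each library, where no test was made, because 3 against 4 libraries allow no p below 0.0571 and sign flips of 4 pairs none below 0.125. The lowest count of a member in a library was 1278, and counting error and other spread between replicates were not separated gene by gene.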
